A study of Mus musculus with 15 samples.

Results

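Endoplasmic reticulum (ER) stress was examined here through 10 genes in mouse fat: the chaperones and folding enzymes Hspa5, Hsp90b1, Calr, Pdia4 and Dnajb9, the degradation factor Herpud1, the transcription factors Xbp1, Atf4 and Ddit3, and the pseudokinase gene Trib3. For each gene the probe set with the highest mean over the 15 arrays was taken, among those annotated with a single symbol, and all 10 of the 10 were found, out of 19938 named genes. RNA came from gonadal white adipose tissue, the fat pad beside the epididymis, of 8 Sfrp5 KO (Q27Stop) and 7 wild-type male mice, 1 array per mouse. All mice were C57BL6/J, ate a high-fat diet for 8 weeks and were 12 weeks old, so no lean group is part of the comparison. Sfrp5 encodes a secreted Wnt-binding protein of adipocytes. The KO allele holds a premature stop codon, and the labels name no tissue restriction for it. Whole fat pads hold adipocytes, macrophages, fibroblasts, vessels and mesothelium, so fewer cells of a type and less RNA per cell cannot be told apart in any value below.

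The ER folds secreted and membrane proteins. When unfolded proteins build up in it, the membrane sensors IRE1, PERK and ATF6 start the unfolded protein response. ATF6 and the spliced form of Xbp1 raise chaperones, folding enzymes and degradation factors, whereas PERK slows translation and favours production of ATF4, which raises Ddit3 (CHOP) and Trib3. Adipocytes secrete large amounts of protein and lipid-handling enzymes, and obesity is a setting in which this response has been studied widely in fat.

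Promoters of genes raised by ATF6 can carry known sequence elements, and exact matches to such elements were found here in Hspa5, Calr, Hsp90b1 and Herpud1. The search took exact matches in a short window only, so it does not show that the other 6 genes lack such elements. The ER stress element (ERSE), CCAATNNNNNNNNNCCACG, and the shorter ERSE-II, ATTGG and CCACG with 1 base between them, were searched on both strands in the 250 bases before each RefSeq start (GRCm38.p6), together with TGACGTGG, a core bound by XBP1 and ATF6, and TGATGNAA, a core of the ATF4-bound element. ERSE was found in 3 of the 10 promoters, in Hspa5 at positions -65 to -47 from the start, in Calr at -162 to -144 and in Hsp90b1 at -212 to -194 and -107 to -89. Over all 32851 promoter windows, 0.113% held it. ERSE-II was found in 1 of the 10, Herpud1, at -52 to -42, against 0.0304% of all windows. The ATF4 core was also found in 1, Herpud1, at -112 to -105, against 3.45% of all windows, and TGACGTGG in none of the 10, against 0.563%. None of the 4 motifs was found in this window of Pdia4, Dnajb9, Xbp1, Atf4, Ddit3 or Trib3. A match describes these letters and does not show binding. In the sequences below, 5′ to 3′ on the strand of the gene, capitals mark the matches, and those in Calr, the nearer one in Hsp90b1 and the ATF4 core in Herpud1 read on the opposite strand.
Hspa5, chr2:34771840-34772089, plus strand: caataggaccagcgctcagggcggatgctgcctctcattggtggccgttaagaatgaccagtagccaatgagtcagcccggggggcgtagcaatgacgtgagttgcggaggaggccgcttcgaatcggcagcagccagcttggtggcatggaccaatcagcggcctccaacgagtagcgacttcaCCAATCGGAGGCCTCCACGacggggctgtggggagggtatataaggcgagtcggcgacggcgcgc
Calr, chr8:84846932-84847181, minus strand: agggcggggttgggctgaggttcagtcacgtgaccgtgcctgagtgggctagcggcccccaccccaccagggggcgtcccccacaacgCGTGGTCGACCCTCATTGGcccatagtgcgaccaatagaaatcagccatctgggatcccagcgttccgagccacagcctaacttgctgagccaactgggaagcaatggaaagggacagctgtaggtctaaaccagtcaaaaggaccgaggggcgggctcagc
Hsp90b1, chr10:86705445-86705694, minus strand: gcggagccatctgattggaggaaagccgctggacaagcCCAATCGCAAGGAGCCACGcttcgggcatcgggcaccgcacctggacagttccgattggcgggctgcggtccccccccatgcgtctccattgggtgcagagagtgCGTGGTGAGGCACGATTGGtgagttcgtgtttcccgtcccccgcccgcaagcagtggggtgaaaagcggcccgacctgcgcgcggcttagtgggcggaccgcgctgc
Herpud1, chr8:94386179-94386428, plus strand: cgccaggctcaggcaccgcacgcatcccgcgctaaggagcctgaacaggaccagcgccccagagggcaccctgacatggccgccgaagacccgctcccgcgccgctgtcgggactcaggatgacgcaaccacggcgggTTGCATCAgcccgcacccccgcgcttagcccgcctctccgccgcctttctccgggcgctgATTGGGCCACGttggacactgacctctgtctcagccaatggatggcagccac

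Values are the deposited RMA log2 expression of each probe set, and a level of one probe set is not set against that of another. Array medians lay between 6.99 and 7.07. Sfrp5 itself ranged from 6.02 to 7.12 in KO arrays and from 7.66 to 8.33 in wild-type arrays, with no overlap. The difference on the log2 scale was -1.23 (SE 0.16; limma adjusted p = 0.0200), and the adjusted p rose above 0.05, to at most 0.0670, when any 1 of wild-type replicates 2, 3, 4 and 5 or KO replicates 2, 5 and 8 was left out. The brightest adipocyte marker, Cd36, averaged 13.17 ± 0.04 (SD, n = 8) in KO and 13.09 ± 0.04 (SD, n = 7) in wild-type arrays. All arrays are of gonadal fat, so the tissue label could not be tested against another tissue. Libraries stood apart in 2 ways. The mean of 11 epididymis markers was 10.41 in KO replicate 2 and 5.44 to 6.62 in the other KO arrays, and 7.15 in wild-type replicate 4 and 5.41 to 6.0 in the other wild-type arrays. The mean of 14 macrophage markers was 9.84 in KO replicate 8 and 8.40 to 9.09 in the other KO arrays, and 9.40 in wild-type replicate 2 and 8.57 to 8.86 in the other wild-type arrays. Results that rest on these 4 arrays are given with and without them, or are said to be from all arrays only.

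The ER stress genes did not differ between the genotypes at the threshold used. None of the 10 passed a Benjamini-Hochberg adjusted p of 0.05 in limma over all 35557 probe sets, where 0.0337% of probe sets passed. At an unadjusted p below 0.05 there was 1 of the 10, higher in KO, against 9.97% of all probe sets in either direction and 4.94% higher in KO. Among named genes alone the share in either direction was 6.69%. The KO mean was higher for 9 of 10 genes, but for 5 of 10 after quantile normalization, beside 44.8% of named genes with a positive difference. That share includes dim genes. With dim probe sets left out, the KO mean was higher for 9 of 10 genes, beside 7206 of 14662 named genes. The median log2 difference of the 10, KO minus wild type, was 0.04, beside -0.01 over all named genes. Averaged over the 10 genes, arrays read 9.68 ± 0.07 (SD, n = 8) in KO and 9.63 ± 0.07 (SD, n = 7) in wild type. The genotypes' ranges overlapped for all 10 genes.

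Among the chaperones, Hspa5 encodes BiP, the HSP70 of the ER lumen and the usual readout of this response. Its lowest, median and highest values were 11.68, 11.82 and 12.02 in KO arrays, against 11.60, 11.68 and 11.90 in wild-type arrays. The ranges overlapped over most of their length, with KO replicate 8 at the top and wild-type replicate 3 at the bottom. The log2 difference was 0.09 (SE 0.06; 95% interval -0.05 to 0.22; limma adjusted p = 0.713), and 7 of 8 KO arrays lay above the wild-type median. Hsp90b1 encodes GRP94, the HSP90 of the ER. It read 12.71, 12.80 and 12.92 in KO arrays (lowest, median, highest), against 12.66, 12.76 and 12.83 in wild-type arrays. Its KO maximum came from replicate 2, the array with the epididymis signal. Its spread within genotype was the smallest of the 10 genes, an SD of 0.06, and its difference of 0.04 (SE 0.05; limma adjusted p = 0.828) changed sign to -0.016 after quantile normalization.

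Calr encodes calreticulin, a calcium-binding lectin chaperone that holds glycoproteins during folding. It read 11.26, 11.50 and 11.76 in KO arrays (lowest, median, highest), against 11.23, 11.48 and 11.62 in wild-type arrays. The genotypes covered nearly the same range, again with KO replicate 8 highest. The log2 difference was 0.04 (SE 0.08; limma adjusted p = 0.902), and -0.018 after quantile normalization. Pdia4 encodes a protein disulfide isomerase, an enzyme that forms and rearranges disulfide bonds. It read 9.74, 9.93 and 10.06 in KO arrays, against 9.59, 9.85 and 10.03 in wild-type arrays, a difference of 0.04 (SE 0.07; limma adjusted p = 0.905). Wild-type replicate 7, at 9.59, lay apart from the other wild-type arrays, at 9.84 to 10.03, and without it the difference was -0.0072. A dim second probe set of Pdia4 (10544538) averaged 5.52 ± 0.15 (SD, n = 8) in KO and 5.61 ± 0.24 (SD, n = 7) in wild-type arrays, and its difference of -0.08 (SE 0.10; limma adjusted p = 0.851) had the opposite sign.

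Dnajb9 encodes ERdj4, a J-domain co-chaperone of BiP and a target of spliced XBP1. It read 9.50, 9.66 and 9.97 in KO arrays (lowest, median, highest), against 9.33, 9.51 and 9.77 in wild-type arrays. Of the KO arrays, 7 of 8 lay above the wild-type median, yet the ranges overlapped, and the lowest KO array was replicate 8. The log2 difference was 0.17 (SE 0.08; 95% interval 0.01 to 0.34), the largest of the 10, with an unadjusted p of 0.0436 and a limma adjusted p of 0.480. An exact permutation of the genotype labels over all 6435 splits gave a two-sided p of 0.0426. Herpud1 encodes a membrane protein of ER-associated degradation, which returns misfolded proteins to the cytosol. It read 7.99, 8.21 and 8.31 in KO arrays, against 8.08, 8.19 and 8.28 in wild-type arrays. The medians were nearly equal, and the difference of 0.0020 (SE 0.06) had a 95% interval of -0.12 to 0.13 (limma adjusted p = 0.995).

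**Figure D1:**
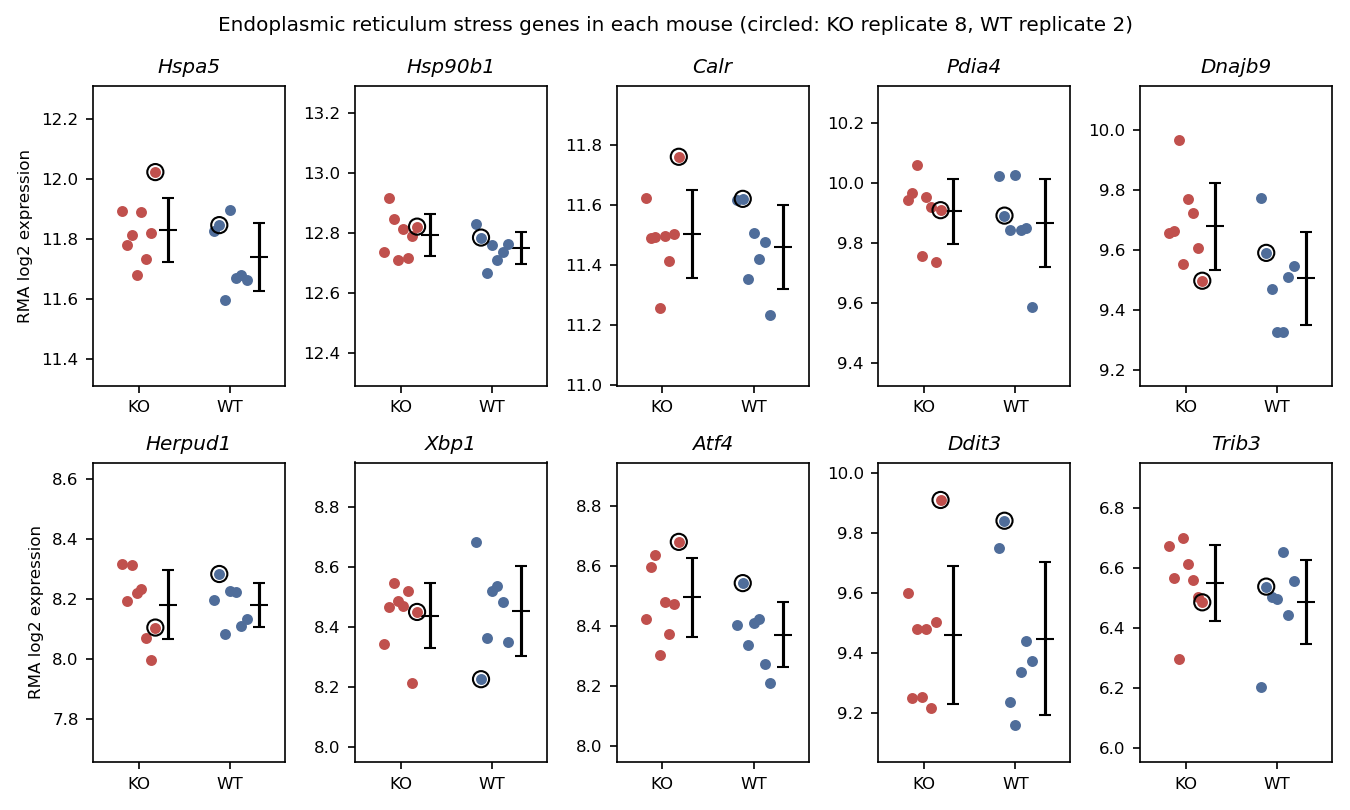
RMA log2 expression of each ER stress gene in each mouse, KO left and wild type right, with the mean and SD as a bar beside each group; every panel spans 1 log2 unit. The genotypes overlap in every panel. The circled arrays with the highest macrophage signal are KO replicate 8 and wild-type replicate 2. Each is the highest of its group in Ddit3, Calr and Atf4 but not in Dnajb9, Xbp1 or Trib3.

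Of the transcription factors, Xbp1 encodes the factor whose transcript IRE1 splices; spliced and unspliced forms were not measured separately here. It read 8.21, 8.47 and 8.55 in KO arrays (lowest, median, highest), against 8.22, 8.48 and 8.68 in wild-type arrays. It was the single gene of the 10 with a lower KO mean (difference -0.01, SE 0.07; limma adjusted p = 0.967), and the sign turned when wild-type replicate 1 or KO replicate 7 was left out. Atf4 encodes the effector of PERK and of the other kinases of eIF2 alpha, and its output is set largely by translation, which arrays do not measure. It read 8.30, 8.48 and 8.68 in KO arrays, against 8.21, 8.40 and 8.54 in wild-type arrays. In 6 of 8 KO arrays it lay above the wild-type median, and the difference was 0.12 (SE 0.07; 95% interval -0.02 to 0.27; limma adjusted p = 0.581).

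Ddit3 encodes CHOP, a factor tied to cell death under prolonged ER stress. It read 9.22, 9.48 and 9.91 in KO arrays (lowest, median, highest), against 9.16, 9.37 and 9.84 in wild-type arrays. It varied most among mice of all 10 genes, with an SD within genotype of 0.24 and a 1.68-fold span over the 15 arrays. The highest arrays were KO replicate 8, wild-type replicate 2 and wild-type replicate 1. The genotype difference was 0.01 (SE 0.12; 95% interval -0.24 to 0.27; limma adjusted p = 0.984), and it turned negative when any 1 of 5 arrays was left out, at -0.05 without KO replicate 8. Trib3 encodes a pseudokinase induced by ATF4 and CHOP that dampens ATF4 activity. It read 6.30, 6.56 and 6.70 in KO arrays, against 6.20, 6.51 and 6.66 in wild-type arrays, all below the array medians, and whether it lay above background could not be assessed. The difference was 0.06 (SE 0.07; limma adjusted p = 0.841), with wild-type replicate 1 and KO replicate 3 lowest.

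**Figure D2:**
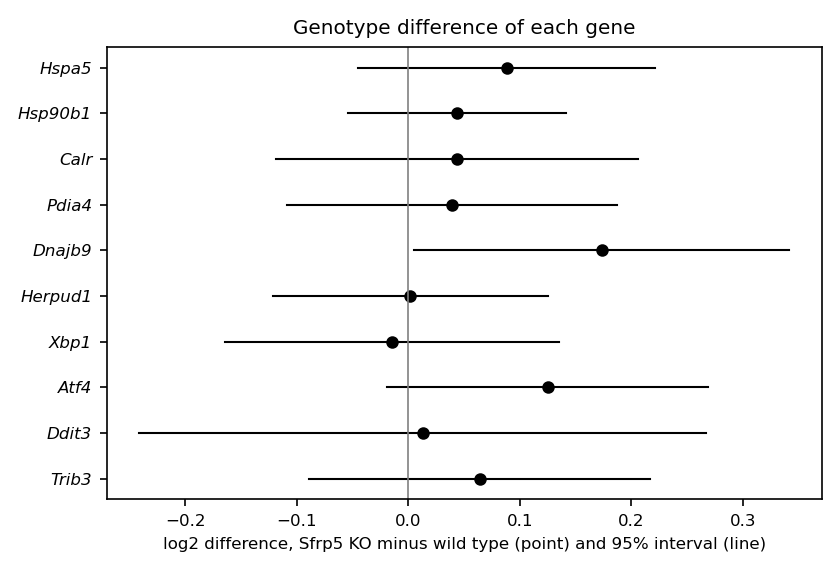
Log2 difference between Sfrp5 KO and wild-type arrays for each gene (point) with limma's 95% interval (line). All intervals cover 0 except that of Dnajb9, 0.01 to 0.34, which did not pass after adjustment (adjusted p = 0.480).

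These intervals bound what the arrays could have missed. The upper limits of the 10 differences ran between 0.13 and 0.34 and the lowest lower limit was -0.24, so a doubling of the measured signal in KO fat lies outside them. For Trib3 this bounds the probe set's signal and not the transcript, since its background could not be assessed. Without wild-type replicate 4 and KO replicate 2, and likewise without wild-type replicate 2 and KO replicate 8, none of the 10 passed, and the difference of their mean was 0.06 in both fits, as with all arrays. The sample list places all wild-type arrays before all KO arrays. The labels do not say in which order the arrays were run, so whether run order and genotype coincide cannot be told. All 10 mesothelial markers, genes of the lining of the fat pad, had a higher mean in KO, beside 44.8% of named genes, with a median difference of 0.35. None passed the adjusted threshold and 4 had an unadjusted p below 0.05, beside 6.69% of named genes. Their list mean lay between 7.82 and 8.60 in KO and between 7.29 and 8.53 in wild-type arrays. The part of this in the differences of the ER stress genes was not tested; with the genotype means removed, r with that mean over the 15 arrays was -0.45 for Dnajb9, -0.37 for Atf4 and -0.64 for Ddit3, and as deposited -0.11, -0.08 and -0.56.

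Other genes of the response, taken from lists chosen with earlier results of these data known, were likewise not past the adjusted threshold (0 of 91 measured of 101 listed). Of the 91, 5 had an unadjusted p below 0.05, beside 6.69% of named genes. In KO 48 were higher and 43 lower, beside 44.8% of named genes higher. Further ER chaperones and folding enzymes were split, 9 higher and 9 lower of 18, with a median difference of 0.0045. Pdia3, the disulfide isomerase that works with calreticulin on glycoproteins, averaged 11.48 ± 0.13 in KO and 11.28 ± 0.10 in wild-type arrays, a difference of 0.19 (SE 0.07; limma adjusted p = 0.314). Uggt1, the sensor of glycoprotein folding, differed by -0.18 (SE 0.07; adjusted p = 0.442) and P4hb, another disulfide isomerase, by -0.14 (SE 0.07; adjusted p = 0.568). Genes of ER-associated degradation and translocation were higher for 13 of 22, with Sel1l of the HRD1 ligase complex at -0.16 (SE 0.08), Derl2 at 0.08 and Selenos at -0.08.

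The stress sensors and the genes that set eIF2 alpha phosphorylation were higher for 9 of 16, with a median of 0.01. The kinases Eif2ak1 (HRI) and Eif2ak3 (PERK) stood at differences of -0.11 (SE 0.06) and -0.10 (SE 0.07), and Mbtps1, the protease that cleaves ATF6 in the Golgi, at -0.09 (SE 0.06), with adjusted p between 0.633 and 0.688. Targets of ATF4 and CHOP were lower for 17 of 25 and higher for 8, beside 44.8% of named genes higher, with a median of -0.03. Among them the transcription factor Atf5 differed by 0.11 (SE 0.06; adjusted p = 0.597), the pro-apoptotic Bbc3 by 0.15 (SE 0.10) and the lipoprotein receptor Vldlr by -0.17 (SE 0.12).

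Across mice the 10 genes did not vary as 1 block. With the genotype means removed, Pearson's r over the 15 arrays was positive for 35 of the 45 pairs of genes, with a median of 0.25, beside 0.01 for all pairs of named genes. It exceeded 0.5 for 10 of the 45 pairs, or 22.2%, beside 7.52% of all pairs of named genes. All values come from the same arrays, so shared RNA quality and normalization enter every pair. Hspa5, Calr, Ddit3 and Atf4 had r between 0.53 and 0.86 in all their pairs. Single genes can have wide ranges: 2.5% of all named genes had r above 0.78 with Ddit3, which is more than its r of 0.77 with Calr, 0.66 with Hspa5 and 0.53 with Atf4. The same share lay above 0.64 with Hspa5, less than its r of 0.86 with Calr and 0.66 with Ddit3. Without wild-type replicate 2 and KO replicate 8, the deposited values gave 0.15 for Ddit3 and Atf4, against 0.48 with all arrays, and 0.40 for Hspa5 and Ddit3, against 0.62. Dnajb9 and Xbp1, both of the IRE1 branch, had r of -0.01 and 0.01 with Hspa5. For Dnajb9 this depended on the arrays that stood apart, since on the deposited values its r with Hspa5 was 0.20 over all arrays and 0.69 without the 4, where it was also 0.77 with Hsp90b1 and 0.64 with Atf4. For Xbp1 and Hspa5 it was -0.02 over all arrays and 0.03 without the 4. Trib3 was negatively correlated with 8 of its 9 partners over the 15 arrays as deposited.

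**Figure D3:**
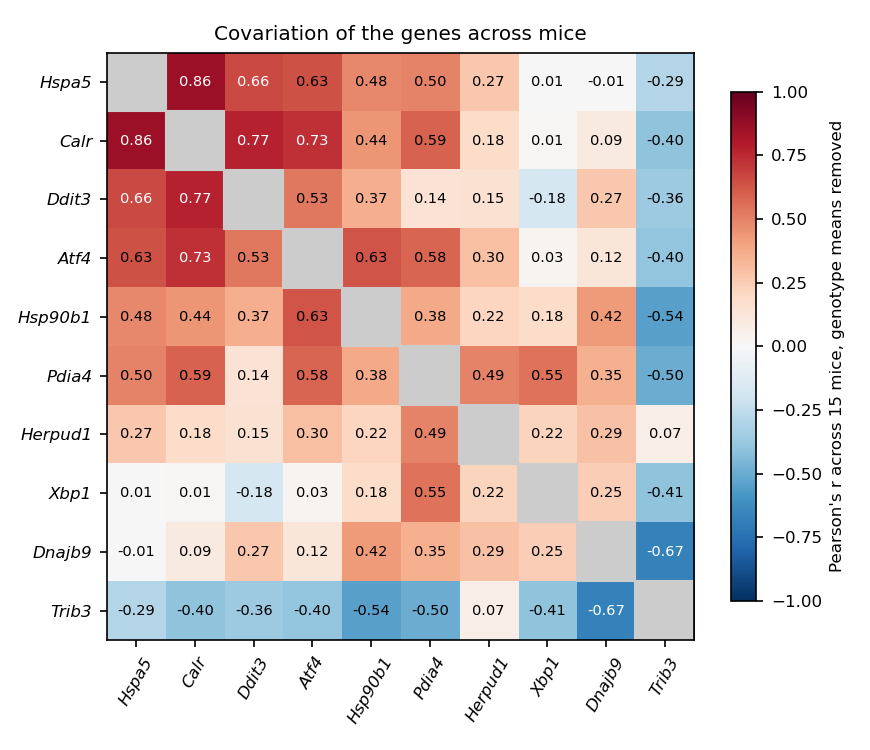
Pearson's r between each pair of ER stress genes across 15 mice after removing the genotype means; red is positive and blue negative, with the value printed in each cell. Hspa5, Calr, Ddit3 and Atf4 sit together at 0.53 to 0.86, and the row of Trib3 is negative except against Herpud1.

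On the deposited values, 5 of the 45 pairs had a permutation p of r below 0.05 after Benjamini-Hochberg adjustment over the 45, and 12 before it; for Spearman's rho 1 pair passed. Hspa5 and Calr had r = 0.84 (permutation p = 8e-05, adjusted p = 0.0036) and rho = 0.92 (permutation p = 1e-05, the smallest it can give, adjusted p = 0.00045). That relation was 0.95 within KO and 0.75 within wild-type arrays, 0.76 without the 2 arrays farthest from the median of Hspa5, and 0.77 without the 4 arrays that stood apart. Ddit3 and Calr had r = 0.77 (adjusted permutation p = 0.0164; rho = 0.69), with 0.88 within KO and 0.66 within wild type, and 0.60 without wild-type replicate 2 and KO replicate 8. Atf4 had r = 0.71 with Calr (adjusted permutation p = 0.0429; rho = 0.68), 0.70 with Hspa5 (adjusted p = 0.0429; rho = 0.64) and 0.68 with Hsp90b1 (adjusted p = 0.0439; rho = 0.67). Without the 2 arrays farthest from the median of Atf4, of Hspa5 and of Hsp90b1, in that order, these became 0.66, 0.57 and 0.65. Hsp90b1, whose promoter also holds ERSE, had r = 0.55 with Hspa5 (adjusted permutation p = 0.169) and 0.46 with Calr (adjusted permutation p = 0.251). The relation of Hsp90b1 and Atf4 was 0.83 within KO and 0.25 within wild-type arrays; the difference between genotypes was not tested.

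At the other end, Pdia4 and Trib3 had r = -0.43, Dnajb9 and Trib3 -0.42 and Xbp1 and Trib3 -0.41, with adjusted permutation p of 0.297 to 0.301 and rho of -0.34, -0.07 and -0.25. For Pdia4 and Trib3 r was -0.06 without wild-type replicate 1 and KO replicate 3, so that relation rests on those arrays, while for Xbp1 and Trib3 it was -0.60 without wild-type replicate 2 and KO replicate 7. Wild-type replicate 1 had the lowest Trib3 and the highest Hsp90b1, Xbp1 and Dnajb9 of its group, and KO replicate 3 the lowest Trib3 and the highest Xbp1, Dnajb9 and Pdia4 of its group. KO replicate 4 was lowest of its group in Hspa5, Hsp90b1, Calr and Atf4 and highest in Trib3.

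A fit of every probe set on the level of Hspa5 with genotype as a covariate put these relations on the scale of the whole array. Of the other 9 genes none passed limma's adjusted threshold, which 0.00844% of 35556 probe sets passed (0.00562% with a positive slope), and 3 had an unadjusted p below 0.05, against 9.77% of probe sets. Those 3 were Calr, which gained 1.11 log2 units per log2 unit of Hspa5 (SE 0.25; adjusted p = 0.232), Ddit3 at 1.44 (SE 0.47; adjusted p = 0.331) and Atf4 at 0.70 (SE 0.28; adjusted p = 0.435). Pdia4 followed at 0.58 (SE 0.31), Hsp90b1 at 0.27 (SE 0.22) and Herpud1 at 0.24 (SE 0.28), then Xbp1 at 0.01 (SE 0.35), Dnajb9 at -0.01 (SE 0.40) and Trib3 at -0.35 (SE 0.35). Both Calr and Ddit3 passed when wild-type replicate 4 was left out, at 1.30 (limma adjusted p = 0.0322) and 2.18 (limma adjusted p = 0.0123), where 1.03% of probe sets passed. That array, with the epididymis signal, had the highest Hspa5 and the lowest Ddit3 among wild-type arrays. Leaving out KO replicate 2 as well gave 1.32 (limma adjusted p = 0.0374) and 2.13 (limma adjusted p = 0.0120), with 0.914% of probe sets past the threshold. Without wild-type replicate 2 and KO replicate 8, the arrays highest in macrophage markers, the slopes were 0.97 for Calr, 0.79 for Ddit3 and 0.48 for Atf4, with limma adjusted p of 0.967 to 0.999. With array weights Calr alone passed (limma adjusted p = 0.0434; 0.273% of probe sets).

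All 18 further chaperones and folding enzymes had a positive slope on Hspa5, beside 48.9% of all probe sets, and none passed the adjusted threshold. Of the 18, 12 had an unadjusted p below 0.05, beside 5.4% of probe sets with such a p and a positive slope. Counts for this and the following lists were taken with all arrays only. Of the ER stress genes, 3 had such a p with all arrays and 1 without wild-type replicate 2 and KO replicate 8. Without all 4 arrays that stood apart, 2 had it. The macrophage markers had positive slopes too, 14 of 14 with 10 at an unadjusted p below 0.05, and a median slope of 1.86, beside 0.85 for the chaperones. Of the degradation and translocation genes 19 of 22 had a positive slope, 6 of them at an unadjusted p below 0.05, and of the targets of ATF4 and CHOP 20 of 25. The 5 named genes most like Hspa5 over the 15 arrays, with genotype means removed, were Sdf2l1 (r = 0.92), an ER protein that works with BiP co-chaperones, Fdps (0.91), the farnesyl diphosphate synthase of cholesterol synthesis, Lsg1 (0.90), a GTPase of ribosome assembly, Ankrd13a (0.90) and Ywhah (0.88), a 14-3-3 protein. Fdps was also the one named gene among the 3 probe sets past the adjusted threshold in the fit on Hspa5, with a slope of 2.35 (limma adjusted p = 0.0388). These calls depended on the arrays and the processing. With 1 array left out, between 0 and 365 probe sets passed. After quantile normalization 2 passed, 0 of them with a positive slope.

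Ddit3 also varied with markers of macrophages, phagocytes that accumulate in obese fat. Of 90 relations between the 10 genes and the means of 9 marker lists, 1 had an adjusted permutation p of r below 0.05, that of Ddit3 with the macrophage mean (r = 0.83, permutation p = 0.00020, adjusted p = 0.0180; rho = 0.81, adjusted p = 0.0450). It was 0.98 within KO and 0.67 within wild-type arrays, and 0.60 without wild-type replicate 2 and KO replicate 8, the 2 arrays farthest from the median of the macrophage mean. Calr (r = 0.67, adjusted permutation p = 0.223) and Hspa5 (r = 0.60, adjusted permutation p = 0.242) did not pass. Their r was 0.34 and 0.27 without those 2 arrays, 0.76 and 0.75 without wild-type replicate 4 and KO replicate 2, and 0.53 and 0.54 without all 4. Atf4 had r = 0.48 (adjusted permutation p = 0.481), 0.02 without wild-type replicate 2 and KO replicate 8 and 0.35 without all 4, while Dnajb9, Herpud1, Trib3 and Pdia4 lay between -0.08 and -0.01 and Xbp1 at -0.43. Of the 14 macrophage markers 12 were higher in KO, beside 44.8% of named genes, none past the threshold. The brightest of them, Lyz2, averaged 11.02 ± 0.38 (SD, n = 8) in KO and 10.97 ± 0.18 (SD, n = 7) in wild-type arrays. That count was taken with all arrays only, and KO replicate 8, at a macrophage mean of 9.84, enters every KO mean in it. The median of the macrophage mean was 8.85 over KO and 8.81 over wild-type arrays. The part of macrophage content in the covariation of Hspa5, Calr, Ddit3 and Atf4 was not tested beyond leaving out these arrays. Without all 4 arrays that stood apart, a choice made after seeing the data, r was 0.77 for Hspa5 and Calr, 0.80 for Ddit3 and Calr, 0.74 for Hspa5 and Ddit3, 0.64 for Hspa5 and Atf4, 0.58 for Atf4 and Calr and 0.36 for Ddit3 and Atf4. On the same arrays Ddit3 had r = 0.50 with the macrophage mean.

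**Figure D4:**
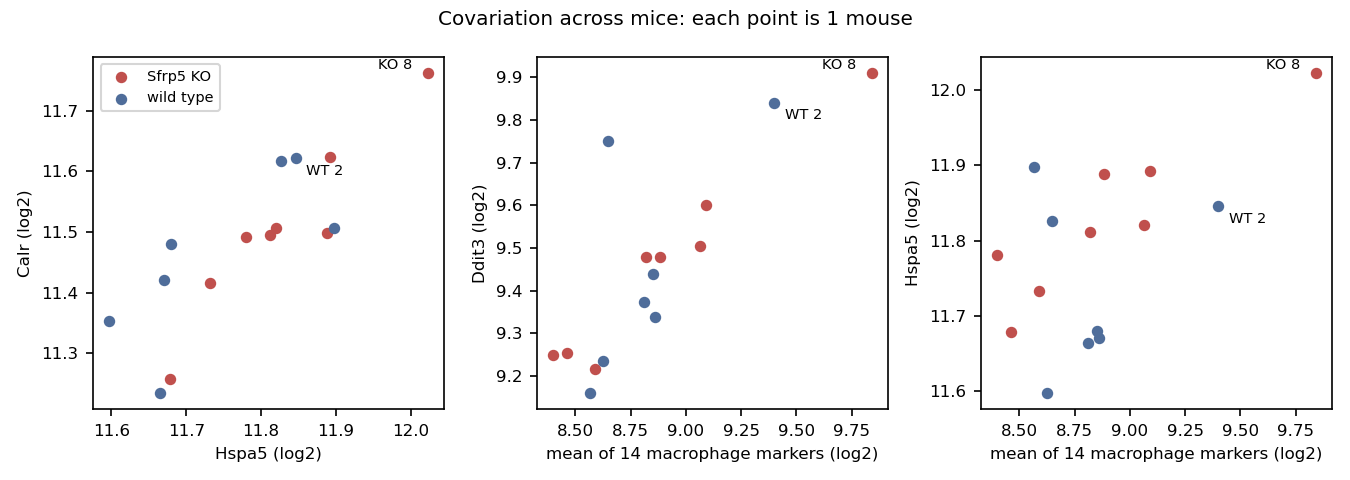
Each point is 1 mouse, red for Sfrp5 KO and blue for wild type: Calr against Hspa5 (left), and Ddit3 (middle) and Hspa5 (right) against the mean of 14 macrophage markers, all on the log2 scale. Calr follows Hspa5 (r = 0.84, and 0.77 without the 4 arrays that stood apart), and Hspa5 against the macrophage mean had r = 0.60, with 0.27 without KO replicate 8 and wild-type replicate 2 and 0.54 without all 4.

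Among the other cell types, Trib3 had r = 0.64 with the B and plasma cell mean (adjusted permutation p = 0.223). Ddit3 had r = 0.64 with the endothelial mean (adjusted permutation p = 0.223) and -0.61 with the B and plasma cell mean. Hspa5 had r = 0.59 with the fibroblast and progenitor mean. With the adipocyte mean Pdia4 had r = 0.54 and Calr 0.52, and 0.87 and 0.72 without the 4 arrays that stood apart. None of these passed the adjusted threshold. Of the 10 genes, Hsp90b1 had the largest r with the epididymis mean. It had r = 0.57 with the mean of the 11 epididymis markers (adjusted permutation p = 0.340; rho = 0.40) and 0.08 without wild-type replicate 4 and KO replicate 2, so that it rests on those arrays. Pdia4 had r = 0.29 with it and rho = 0.63 (adjusted permutation p of rho = 0.240). Of these markers 10 were higher in KO, beside 44.8% of named genes, none past the threshold, with a median difference of 0.63. Both were taken with all arrays only, and KO replicate 2, at an epididymis mean of 10.41, enters every KO mean in them. The median of the epididymis mean was 5.73 over KO and 5.61 over wild-type arrays. The B and plasma cell markers, which could hold cells rich in Xbp1, had r = 0.03 with Xbp1; their 7-gene mean lay between 6.24 and 6.58 in KO and between 6.20 and 6.67 in wild-type arrays.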

How the data were processed

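Gene expression was measured in gonadal fat of 15 male mice, 8 Sfrp5 KO and 7 wild type, with genotype and replicate number taken from the sample labels. For 35557 probe sets on 15 arrays the authors deposited log2 values made with RMA, per the submitters' processing notes, which list, without saying what each did, affy 1.18, limma and Expression Console 1.1.2800.19935 of Affymetrix. RMA makes array distributions more alike, so shifts common to most genes are reduced. The deposited distributions still differed, with array medians between 6.99 and 7.07. Quantile normalization of these values moved the difference of Hspa5 from 0.088 to 0.026 and that of Calr from 0.044 to -0.018. That of Atf4 moved less, from 0.125 to 0.119. Without scanner files, background per probe could not be assessed here, and the number of arrays limits the precision. No source used here gives the genome build behind the probe sets. Probe sets were named from the platform annotation (21789 with 1 symbol, 1621 with several, 12147 with none; only the first kind was named), and 21698 of the 21789 gene identifiers matched the RefSeq table of GRCm38.p6.

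All probe sets were fitted with limma 3.58.1 in R 4.3.3 (lmFit, eBayes, two-sided, no covariate, no filter), with the Benjamini-Hochberg adjustment taken across every probe set and a threshold of 0.05. SEs are moderated by limma. A further fit used the level of Hspa5 and genotype as terms. Correlations of pairs were tested by permuting arrays, 100000 times over 15 arrays and exactly within genotypes, with adjustment over 45 pairs or over 90 relations to marker means. The members, gene lists and tests were chosen with earlier results of these data known. Genes named are Sfrp5, the 10 members, the 3 with the lowest p in each pathway list, the 2 brightest of each marker list (given only where a list is described), the 5 most like Hspa5 and Atf4, and the 5 highest and 3 lowest pairs. The alternatives were other normalizations, a filter below the 33rd percentile, other variance models, array weights, averaging of probe sets per gene, a block for the replicate number, and fits without single arrays or sets of arrays. The fits were tested on simulated data. Promoter sequences are RefSeq's (GRCm38.p6; 10 of 10 genes matched). Figures were drawn with matplotlib 3.10.9 in Python 3.11.15.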

Additional observations from a re-analysis of the deposited data

Results flagged for a closer look

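Groups of 7 or 8 arrays were examined for 1 array lying far from the others, over 52 sets of values (genes and list means), of which chance flags about 1 in 20. In Pdia4, wild-type replicate 7 stood at 9.59 below the other wild-type arrays, at 9.84 to 10.03, and in its dim second probe set wild-type replicate 4 stood at 6.11 above the others, at 5.38 to 5.61. The mean of the stress sensors and eIF2 alpha genes was 8.36 in KO replicate 8, with the other KO arrays at 8.22 to 8.28. The macrophage mean was 9.40 in wild-type replicate 2, with the other wild-type arrays at 8.57 to 8.86. The B and plasma cell mean was 6.24 in KO replicate 8, with the other KO arrays at 6.42 to 6.58. Wild-type replicate 4 had an endothelial mean of 9.04, with the other wild-type arrays at 9.40 to 9.61, and an epididymis mean of 7.15, with the others at 5.41 to 6.0. The epididymis mean of KO replicate 2 was 10.41, with the other KO arrays at 5.44 to 6.62.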

How the results depend on the processing

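None of the 10 genes passed the adjusted threshold between genotypes in any of the 28 alternatives, with a lowest limma adjusted p of 0.359. Of 280 recomputed differences 250 kept their direction and 30 turned sign. With quantile normalization 5 of 10 genes were higher in KO, and the differences were -0.016 for Hsp90b1, -0.0020 for Ddit3, -0.0023 for Herpud1 and -0.018 for Calr. Median centring gave -0.0058 for Herpud1, array weights -0.014 for Ddit3 and -0.015 for Herpud1, and the mean of both probe sets -0.022 for Pdia4. Ddit3 was at -0.0044 without wild-type replicate 4 and KO replicate 2, -0.069 without KO replicates 7 and 8, and -0.0052 without wild-type replicates 2 and 4 and KO replicates 2 and 8 together. Xbp1 was at 0.020 without KO replicates 7 and 8, and with these as the only KO arrays, the ones whose label number is 640 or higher as in all wild-type arrays, Herpud1 was at -0.129 and Pdia4 at -0.043. With 1 array left out, Ddit3 ran between -0.051 and 0.079, Xbp1 between -0.053 and 0.024, Herpud1 between -0.017 and 0.029, Pdia4 between -0.0072 and 0.066, and the count of genes higher in KO between 7 and 10. The difference of their mean lay between 0.044 and 0.075 and the median pairwise r between 0.180 and 0.350; r was 0.44 without the 4 arrays that stood apart. Genes past the threshold with Hspa5 numbered 1 with array weights, 0 to 2 with 1 array left out and 2 without wild-type replicate 4 and KO replicate 2; the cause was not tested. The Sfrp5 difference lay between -1.29 and -1.13 with 1 array left out, where it passed in 8 of 15 fits (limma adjusted p 0.0041 to 0.067). It did not pass without wild-type replicate 4 and KO replicate 2 (-1.17), without wild-type replicate 2 and KO replicate 8 (-1.21), without all 4 (-1.13) or with KO replicates 7 and 8 alone (-0.93), fits with fewer arrays.

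With the replicate number as a block (replicate block, 7 pairs), Sfrp5 was at -1.28 (limma adjusted p = 0.30) and Ddit3 at -0.051, and no call on the 10 genes changed. Same-numbered arrays are of different mice, since each mouse gave 1 array. Their deviations correlated between -0.12 and 0.25, and 1 of the 7 correlated best with its own number. The labels do not say what the numbers stand for, and 7 pairs are too few to tell whether they mark anything shared.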

Other observations

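Heat shock proteins outside the ER, which serve folding in the cytosol and mitochondria, were higher in KO for 9 of 10 measured genes, beside 44.8% of named genes. Their median log2 difference was 0.07. None passed the adjusted threshold and 3 had an unadjusted p below 0.05, against 9.97% of probe sets and 6.69% of named genes. Hspe1, the mitochondrial HSP10, averaged 12.59 ± 0.07 (SD, n = 8) in KO and 12.45 ± 0.07 (SD, n = 7) in wild-type arrays, a difference of 0.15 (SE 0.05; limma adjusted p = 0.287). Hsp90aa1, a cytosolic HSP90, differed by 0.13 (SE 0.05; limma adjusted p = 0.396) and Dnajb1, an HSP40 co-chaperone, by 0.16 (SE 0.07; limma adjusted p = 0.452). In the fit on Hspa5, 6 of the 10 had a positive slope, with Hspe1 at -0.22 and Hsp90aa1 at -0.07. Counts for this list are from the deposited values only. For the 10 ER stress genes, the number higher in KO fell from 9 to 5 after quantile normalization.

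The 5 named genes most like Atf4 over the 15 arrays, with genotype means removed, were Fen1 (r = 0.88), a nuclease of DNA replication, the RNA-processing genes Lsm2 (0.83) and Phf5a (0.81), the potassium channel subunit Kcne3 (0.81) and Klrk1 (0.80), a receptor of natural killer cells. None of them is on the lists of ATF4 targets used here.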
